A study of Mus musculus with 8 samples.

Results

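Remote accessible regions were the 1551 autosomal regions of an ATAC-seq consensus set whose centre lay more than 100000 bases from every transcription start of the basic GENCODE M21 annotation (mouse genome mm10) and did not fall in an exon. They were 1551 of 57124 regions in all and 2.77% of the 55917 autosomal regions. A further 22 regions lay as far from a start but were centred in an exon, and these were left out. Of the 1551 members, 799 were intronic and 752 intergenic.

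ATAC-seq marks open chromatin by the insertion of sequencing adapters with the Tn5 transposase. It was applied here to medullary thymic epithelial cells (mTECs) from the thymus of wild-type BL6N6 mice of 4 to 6 weeks of age, sorted after depletion of CD45+ cells. The labels gave 8 samples in 4 groups of 2 biological replicates, Tspan8neg MHCIIlow, Tspan8neg MHCIIhigh, Tspan8pos MHCIIlow and Tspan8pos MHCIIhigh, so all groups shared the genotype and differed in the sorted surface markers. Tspan8 is itself a self-antigen displayed by a subset of mTECs, and MHC class II rises as mTECs mature. Per the paper it falls again in late stages, so the MHCIIlow groups hold late as well as immature mTECs. The read counts could not be tied to the labelled samples, so differences between these groups are not analysed here, and the depth of each sample is not given. What is described is where the regions of the common set lie and what sequence they hold.

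Open chromatin far from any start often marks distal regulatory elements, which act on a promoter by folding of the DNA between them. Such elements are known to gather in long introns and in the gene-poor stretches beside genes for developmental transcription factors, and an element inside the intron of one gene can act on its neighbour. CTCF is a DNA-binding protein that helps to anchor chromatin loops. AP-1 factors are dimers of the Fos and Jun families, and NF-kB factors, RelB among them, are needed for mTECs to develop. The labelled cell type was checked at promoters. A region was present at the promoter of 6 of 6 genes of epithelial identity and antigen presentation (Epcam, Krt5, Krt8, Aire, H2-Aa and Cd74) and of 0 of 4 genes of haematopoietic cells and thymocytes (Ptprc, Cd3e, Cd4 and Cd8a).

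Sequences of some remote regions with motif matches are given first. They come from the GRCm38 reference, the assembly of mm10, and are the plus strand, with up to 300 central bases of each region. Capitals mark matches, on either strand, to AP-1 (TGANTCA), NF-kB (GGANTTTCC) or the CTCF motif. The first set shows remote regions with an NF-kB match, with an AP-1 match in the same stretch in the first pair.
Trps1 to Eif3h, chr15:51730964-51731263: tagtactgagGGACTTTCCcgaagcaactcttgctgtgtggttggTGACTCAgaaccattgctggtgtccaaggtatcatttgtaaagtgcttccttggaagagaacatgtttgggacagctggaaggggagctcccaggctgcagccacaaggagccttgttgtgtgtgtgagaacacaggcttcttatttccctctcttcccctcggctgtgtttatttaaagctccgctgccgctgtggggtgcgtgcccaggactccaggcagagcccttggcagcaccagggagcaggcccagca
Sel1l to Flrt2, chr12:94345922-94346221: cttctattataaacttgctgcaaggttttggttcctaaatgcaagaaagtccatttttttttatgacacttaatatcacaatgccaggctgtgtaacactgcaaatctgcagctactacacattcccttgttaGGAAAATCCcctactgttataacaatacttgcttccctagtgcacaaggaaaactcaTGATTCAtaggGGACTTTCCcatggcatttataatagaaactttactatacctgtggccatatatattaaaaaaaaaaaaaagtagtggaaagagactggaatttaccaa
Sox9 desert, NF-kB, chr11:112990414-112990713: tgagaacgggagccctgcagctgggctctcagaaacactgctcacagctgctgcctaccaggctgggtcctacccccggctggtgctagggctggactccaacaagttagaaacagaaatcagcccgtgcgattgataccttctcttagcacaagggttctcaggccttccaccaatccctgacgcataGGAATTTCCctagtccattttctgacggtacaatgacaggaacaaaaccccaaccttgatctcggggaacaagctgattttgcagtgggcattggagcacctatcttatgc
Xylt1 intron, chr7:117568017-117568316: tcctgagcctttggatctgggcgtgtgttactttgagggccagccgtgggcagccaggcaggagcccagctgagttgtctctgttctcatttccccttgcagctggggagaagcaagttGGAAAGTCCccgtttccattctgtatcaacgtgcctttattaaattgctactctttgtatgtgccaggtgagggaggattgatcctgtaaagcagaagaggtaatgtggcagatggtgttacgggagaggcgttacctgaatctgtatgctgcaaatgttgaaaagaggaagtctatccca

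The intergenic region between Trps1 and Eif3h was 540 bases wide and held 1 NF-kB and 1 AP-1 match in the stretch shown. The region between Sel1l and Flrt2 lay 286 kb from the nearest start, was 505 bases wide with a GC content of 37.0%, and held 2 NF-kB matches and 1 AP-1 match. The next set shows a pair of the wider remote regions with a CTCF match.
Cdh26 to Cdh4, chr2:178664950-178665249: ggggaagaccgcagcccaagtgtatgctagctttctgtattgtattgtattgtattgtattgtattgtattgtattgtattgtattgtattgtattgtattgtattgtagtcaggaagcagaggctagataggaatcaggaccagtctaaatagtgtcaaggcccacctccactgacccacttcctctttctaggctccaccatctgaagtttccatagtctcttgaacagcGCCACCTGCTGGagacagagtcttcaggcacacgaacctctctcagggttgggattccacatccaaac
Tns3 intron, chr11:8523751-8524050: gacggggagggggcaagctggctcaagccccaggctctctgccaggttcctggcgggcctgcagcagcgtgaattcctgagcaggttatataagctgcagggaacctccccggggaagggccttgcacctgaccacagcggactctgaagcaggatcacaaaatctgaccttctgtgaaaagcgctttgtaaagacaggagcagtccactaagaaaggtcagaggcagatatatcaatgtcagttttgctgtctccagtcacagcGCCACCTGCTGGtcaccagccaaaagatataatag

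The region between Cdh26 and Cdh4, genes for cell adhesion cadherins, was 354 bases wide and lay 234 kb from a start. The region in an intron of Tns3, which encodes the focal adhesion protein tensin 3, was 318 bases wide. The last set shows remote regions beside genes that act in thymic or other epithelial cells, each with 1 AP-1 match.
Klf4 desert, chr4:56533264-56533563: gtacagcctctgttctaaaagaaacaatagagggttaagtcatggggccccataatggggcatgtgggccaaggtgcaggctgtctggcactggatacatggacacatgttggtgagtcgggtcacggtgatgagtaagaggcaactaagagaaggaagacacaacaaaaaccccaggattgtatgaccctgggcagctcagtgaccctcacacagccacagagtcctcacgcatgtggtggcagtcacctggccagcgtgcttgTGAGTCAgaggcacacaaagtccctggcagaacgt
Sox9 desert, AP-1, chr11:113063048-113063347: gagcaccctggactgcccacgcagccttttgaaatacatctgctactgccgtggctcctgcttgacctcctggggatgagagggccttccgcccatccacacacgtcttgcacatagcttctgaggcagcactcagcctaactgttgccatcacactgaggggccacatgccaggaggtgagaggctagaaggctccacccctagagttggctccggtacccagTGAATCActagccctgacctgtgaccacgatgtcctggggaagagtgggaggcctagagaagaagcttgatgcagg
Pax9, Slc25a21 intron, chr12:56804523-56804816: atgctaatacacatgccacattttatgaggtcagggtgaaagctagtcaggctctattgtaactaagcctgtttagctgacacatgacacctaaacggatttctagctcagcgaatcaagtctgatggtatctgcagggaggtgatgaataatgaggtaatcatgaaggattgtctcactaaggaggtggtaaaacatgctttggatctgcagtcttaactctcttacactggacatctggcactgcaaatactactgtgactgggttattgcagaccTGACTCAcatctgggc

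The first of these is the central part of the widest remote region in the gene-poor stretch of Klf4, and the others lie beside Sox9 and Pax9. The Sox9 region of this set lies in an intron of the non-coding gene 2610035D17Rik, so its label of desert refers to protein-coding genes only. Their positions are described further on.

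Far fewer regions per base were found in remote territory than near starts. Territory over 100 kb from every start, outside exons, made up 255 Mb or 10.6% of the known autosomal bases. Including promoters and exons, there were 153 regions per Mb within 1 kb of a start, 22.8 per Mb at 1 to 10 kb and 16.7 per Mb (95% Wilson interval over regions 16.5 to 16.9) at 10 to 100 kb. The density was 6.63 per Mb (6.28 to 7.0) at 100 to 200 kb and 4.66 per Mb (4.15 to 5.23) at 200 to 500 kb. Only 6 regions lay over 500 kb away, in 1.45 Mb, which gave 4.14 per Mb (1.90 to 9.04), and this interval held the value of the class before it. Over all distances above 100 kb the density was 6.15 per Mb, 0.368 times that at 10 to 100 kb. All intervals cover counting error over regions only. Regions are not replicates of the experiment, and neighbouring regions are not independent.

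**Figure D1:**
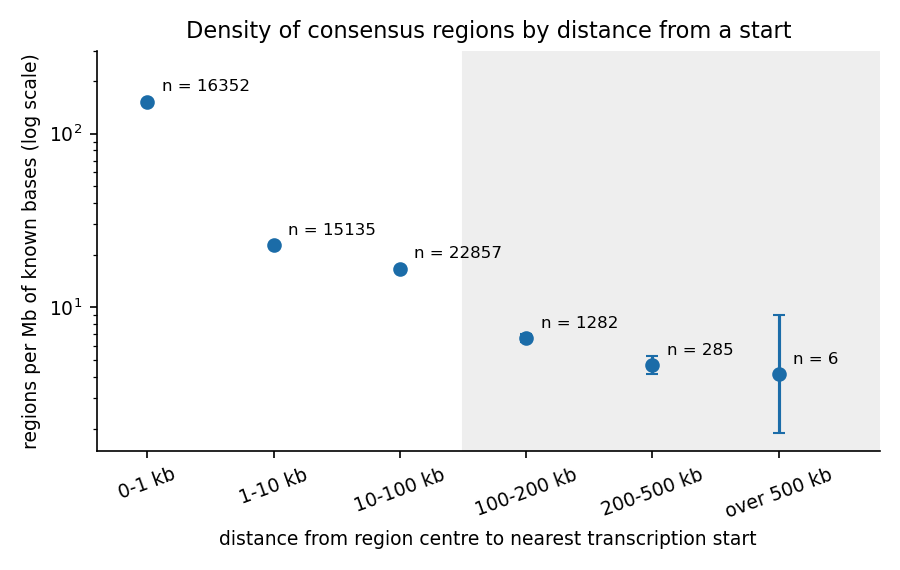
Regions per Mb of known autosomal bases (log scale) in 6 classes of distance from the region centre to the nearest transcription start, with the number of regions and 95% Wilson intervals as bars; the shaded classes lie beyond 100 kb. The density falls from 153 per Mb within 1 kb to 6.63 per Mb at 100 to 200 kb, and the interval of the last class, with 6 regions, holds the value of the class before it.

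The limit of 100000 bases cut through a continuous range of distances. The 3 members just inside it lay 100006 bases (chr19:37025852-37026319, in an intron of Cpeb3), 100034 bases (chr18:39094155-39094297) and 100066 bases (chr1:152525056-152525246) from a start. The 3 regions just outside it lay 99967 bases (chr3:117746650-117746832), 99962 bases (chr14:13553805-13554178) and 99934 bases (chr16:72763012-72763154, in Robo1) from one. Widths were 468, 143 and 191 bases inside and 183, 374 and 143 bases outside, so the nearest neighbours of the limit overlapped in width. Of all members, 81.4% lay under 200 kb from a start, and the median distance was 137 kb. The nearest start belonged to a protein-coding gene for 522 members (33.7%), and the median distance to a protein-coding start was 208 kb.

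The median width of remote regions was within a few bases of that of other distal regions. Their median width was 161 bases (quartiles 103 and 267, n = 1551), compared with 166 bases at 10 to 100 kb (n = 22003) and 167 bases at 1 to 10 kb (n = 13855), both without promoters and exons. Regions of at least 500 bases made up 4.51% (3.59 to 5.66) of remote regions, 5.81% (5.51 to 6.13) at 10 to 100 kb and 6.72% (6.31 to 7.15) at 1 to 10 kb. The GC content of remote regions was lower, with a median of 48.1% against 50.7% and 52.2%. Windows beside the regions were also poorer in GC, with medians of 41.5%, 45.0% and 46.0% in the same order, so the regions stood above their surroundings in every class. Regions with at least 50% of their bases soft-masked as repeats were 5.16% (4.16 to 6.37) of remote regions and 3.93% (3.68 to 4.20) of those at 10 to 100 kb. Soft-masked sequence made up 10.6% of the bases of remote regions and 36.3% of remote territory.

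The widest remote region, chr16:49970362-49971591, measured 1230 bases and lay between Cd47, the gene for a cell surface protein that restrains phagocytosis, and Bbx. It was 104 kb from the start of Cd47 in GENCODE and 787 bases from the start of a RefSeq transcript. The second, chr4:56532952-56533876, measured 925 bases and lay 1001 kb from Klf4. The next were 849 bases (chr17:79461303-79462151, 107 kb from Cdc42ep3), 846 bases (chr18:5819756-5820601, 228 kb from Zeb1, an E-box binding repressor), 830 bases (chr15:80836244-80837073, in an intron of Tnrc6b) and 826 bases (chr6:37143296-37144121, in an intron of Dgki). The remaining 4 of the 10 widest lay between Adcy2 and Tent4a (824 bases) and in introns of Ctnna3 (799 bases), Xylt1 (792 bases) and Fggy (780 bases). Of these 10, 8 held an AP-1 match somewhere in their sequence, the exceptions being those between Adcy2 and Tent4a and in Ctnna3. Wider regions have more sequence in which a match can occur.

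Of the 5 members farthest from any start, the first, in an intron of Dcc, the gene of the netrin receptor of growing axons, was 642 kb from a start and 586 bases wide (chr18:71708702-71709287). A pair in an intron of Ptprd, a receptor phosphatase of synapses, lay 585 kb and 561 kb away and were 341 and 95 bases wide. Another pair between Ankrd7 and the potassium channel gene Kcnd2, 880 and 911 kb from the latter, lay 547 kb and 517 kb away, with widths of 169 and 88 bases. The widths of these 5 ran from 88 to 586 bases.

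Introns held more than their share of remote regions. Of the members, 51.5% (49.0 to 54.0) were intronic, while introns made up 32.9% of remote territory. This corresponded to 9.53 regions per Mb of remote intron and 4.4 per Mb of remote intergenic sequence, a ratio of 2.17. At 10 to 100 kb the corresponding ratio was 1.48, with 13.5 regions per Mb of intergenic sequence. Beyond 200 kb the intronic share was 45.7% (40.0 to 51.4, n = 289). Intronic and intergenic members were alike in median width, 162 and 160 bases, and in median GC content, 48.6% and 47.6%. Protein-coding genes hosted 783 members in 311 genes, of which 151 hosted 1 member each.

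Cdkal1, which encodes an enzyme that modifies transfer RNA, hosted the most members, 21, with widths from 71 to 584 bases. Wwox, an oxidoreductase gene in a fragile genomic site, hosted 12 members of 69 to 399 bases. Macrod2 and Stk39 hosted 10 each, with median widths of 225 and 117 bases.

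The members were unevenly spread over the intervals between neighbouring starts. Of 2023 such intervals with remote territory, 1323 (65.4%) held no member, and 51 intervals with 6 or more held 393 members, 25.3% of all, in 15.1 Mb of the 256 Mb of remote territory. The empty intervals were smaller, with a median of 57.4 kb of remote sequence against 226 kb in those with 6 or more. How far interval size enters these counts was not tested, and the 51 intervals were picked by their own count. The largest empty interval had 826 kb of remote sequence on chromosome 6. The density was 9.43 per Mb in intervals whose remote part was under 50 kb and 4.58 per Mb in those with over 400 kb, so the largest deserts were the sparsest.

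The interval within Cdkal1 led with 21 members between chr13:29356665 and chr13:29738439. Its flanking protein-coding genes were Cdkal1 and Sox4, which encodes an SRY-related transcription factor. The density there was 50.1 members per Mb of remote sequence. The widest of them, chr13:29737856-29738439, measured 584 bases and lay 118 kb from the start of Cdkal1 and 784 kb from that of Sox4. Within their own bounds, 7 of these 21 members held an AP-1 match, 1 an NF-kB match and 0 a CTCF match. The stretch between Gata6, a zinc finger factor gene, and Rbbp8 on chromosome 18 held 13 intergenic members at 34.9 per Mb. An interval on chromosome 8 held 12 members at 36.1 per Mb, 10 of them intronic. It ran from the start of Gm22556 to that of 4930488N15Rik. This is only a part of the stretch between its flanking protein-coding genes, Wwox and Maf, the gene of a basic leucine zipper factor.

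Intervals with 10 members each lay between Cdh26 and Cdh4, beside the homeobox gene Meis2, and in Stk39, a kinase gene. The interval between Cdh26 and Cdh4 had the largest median width of the leading 10 intervals, 306 bases, with 1 member of 542 bases. In contrast, the members in Stk39 had a median width of 117 bases and none was wider than 208 bases, although their density, 64.7 per Mb in 155 kb of remote sequence, was the largest of these 10 intervals. Of the leading 10 intervals, 3 had 9 members each. They lay between Dok5 and Cbln4, between Dcc and Mex3c, and in Slc25a21 next to Pax9. The interval between Dcc and Mex3c was bounded by the starts of AC139348.1 and n-R5-8s1. It is therefore a part of the stretch between these protein-coding genes, which held a further member outside it.

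**Figure D2:**
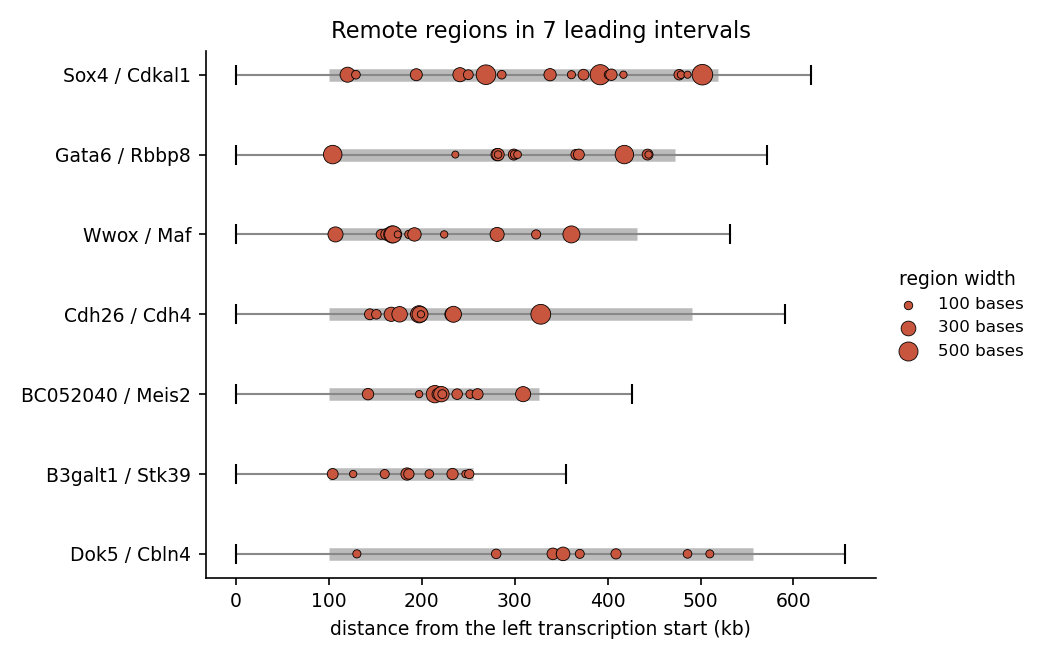
Leading intervals between neighbouring transcription starts (7 of the first 8 by number of members), drawn as distance in kb from the left bounding start. Rows are named by the flanking protein-coding genes, but a bounding start can belong to another gene. In the row named for Sox4 and Cdkal1 the left bounding start is that of Gm11364, so the axis does not give the distance from Sox4. Short vertical lines are the bounding starts, and the thick grey bar is the part over 100 kb from both. Each circle is a remote region with its area proportional to width. The 21 members beside Sox4 are spread over most of the grey bar, while the 10 in the Cdh26 to Cdh4 interval leave its right part bare.

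A smaller share of remote regions than of other distal regions had a neighbour of the same class within 10 kb. Another member lay within 10 kb of 36.0% of remote regions (33.6 to 38.4), compared with 47.5% (46.8 to 48.1) at 10 to 100 kb and 43.5% (42.7 to 44.3) at 1 to 10 kb, counted within each class. Such shares depend on density, which in remote territory was 0.368 times that at 10 to 100 kb, and on the edges of each class. They were not adjusted for either, so they do not show whether remote regions were more or less clustered for their density. There were 993 single members and 231 groups, of which 22 had 4 or more. The largest, of 6 members in 10.9 kb, lay between Alcam, an adhesion molecule gene expressed by thymic epithelium, and Zpld1 (chr16:53063509-53074377), and its members were at most 179 bases wide. Another 6 groups had 5 members. They lay in Cdkal1 (chr13:29625090-29640528, widest member 561 bases), beside Klf4 (chr4:55718683-55733526), in the gene of the nuclear receptor Rora (chr9:68956482-68972641), between Adamts6 and Cwc27, in Wwox near Maf, and in Nos1ap. None of these groups spanned more than 18.2 kb.

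Chromosomes differed in how much remote sequence they had and in how densely members filled it. Remote territory ranged from 5.50% of chromosome 7 to 15.1% of chromosome 16. Members made up 4.43% (3.63 to 5.39) of the regions of chromosome 16 and 1.69% (1.29 to 2.20) of those of chromosome 10. Chromosome 13 had the most members per Mb of remote sequence, 9.90, followed by chromosome 7 with 9.61, and chromosome 3 the fewest with 4.14. Without the 21 members beside Sox4 and their interval, chromosome 13 had 69 members and 7.95 per Mb.

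Genes of developmental transcription factors flanked remote regions more often than they flanked remote bases. Here a flanking gene is the protein-coding gene with the nearest start to the left or right. The list held 264 genes of factor families such as Sox, Fox, Pax, Irx, Gata and Klf, picked by symbol. Of the members, 176 or 11.3% (9.86 to 13) were flanked by one, compared with 6.51% of remote bases. At 10 to 100 kb the share was 5.43% (5.13 to 5.73) of regions and 5.78% of bases. The 176 members lay beside 48 of the 264 genes. Without the interval next to Sox4 the share was 10.1% (8.72 to 11.7). Counted over stretches between protein-coding starts, 56.8% (46.4 to 66.7) of the 88 stretches beside such a gene held a member, and 48.3% (45.3 to 51.4) of the 1016 stretches beside neither list, so these intervals overlapped. The density was 10.6 members per Mb in the former and 6.46 per Mb in the latter. Stretches beside such a gene had a median of 120 kb of remote sequence, against 98.6 kb beside neither list. The shares of stretches that held a member take no account of this size.

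Genes of cell adhesion and axon guidance gave the opposite order of region and base shares. The 206 listed genes, of families such as the cadherins, Robo, Slit, Epha and Cntn, flanked 180 members, 11.6% (10.1 to 13.3), but 21% of remote bases. The density beside them was 3.37 members per Mb. By stretches, 52.8% (44.1 to 61.4) of the 123 beside such a gene held a member, an interval that overlapped that of stretches beside neither list. These stretches were longer, with a median of 351 kb of remote sequence against 98.6 kb beside neither list. The count of stretches takes no account of this size, so it does not bear on the lower density. At 10 to 100 kb they flanked 3.97% (3.72 to 4.24) of regions and 9.72% of bases. Leading genes were the ephrin receptor gene Epha6 and the Slit receptor gene Robo2, with 11 members each, and Cdh26, Cdh4, Flrt3 and Sema6d, with 10 each.

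**Figure D3:**
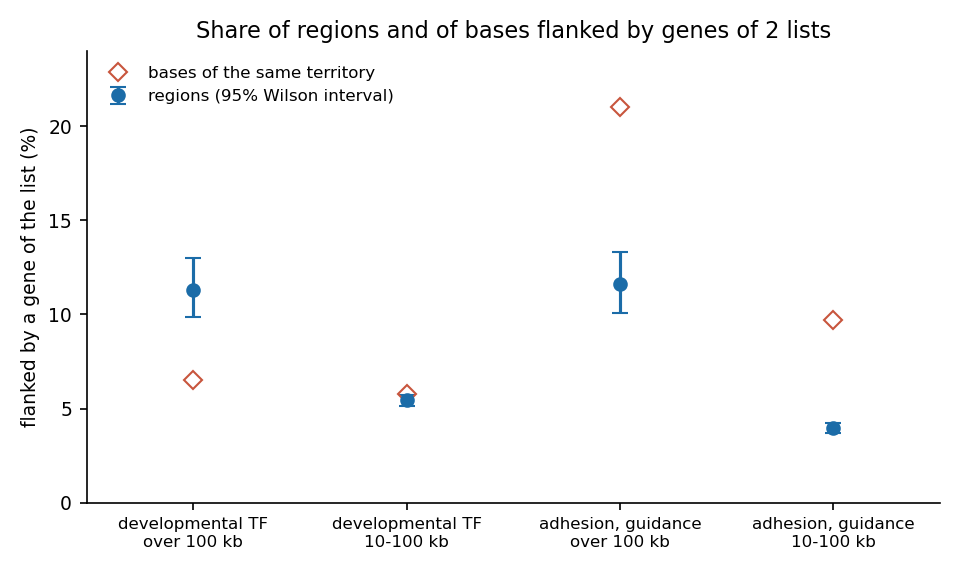
Percent of regions (points, 95% Wilson intervals over regions) and percent of bases of the same territory (open diamonds) flanked by a gene of the developmental transcription factor list or of the adhesion and guidance list, over 100 kb and at 10 to 100 kb from a start. Remote regions sit at 11.3% against 6.51% of bases for the first list and at 11.6% against 21% for the second.

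Among the transcription factor genes, Sox4 with 21 members was followed by Maf with 15, Gata6 and Zeb2 with 13 each, Meis2 with 10, and Klf4 and Pax9 with 9 each. The members beside Maf lay 147 to 885 kb from its start, 12 of them in introns of Wwox, and reached 689 bases in width. Those beside Gata6 lay 104 to 444 kb away, all intergenic. Zeb2, which encodes a homologue of Zeb1, had its 13 members 858 to 3519 kb away, in the desert up to Acvr2a, with 1673 kb of remote sequence and 7.77 members per Mb. The members near Meis2 lay 117 to 284 kb from it, 4 of them in Meis2 itself. The 4 members beside Klf9 all lay in introns of the ion channel gene Trpm3, and were 212 to 372 bases wide.

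A list of 56 genes with roles in thymic epithelium, which included Aire, Fezf2, Ehf, Foxn1 and Trp63, also flanked a larger share of remote regions than of remote bases. They flanked 27 members, 1.74% (1.20 to 2.52) of remote regions, and 0.938% of remote bases. These members lay beside 5 of the 56 genes (8.93%, 3.87 to 19.3), while 1086 of 20780 autosomal protein-coding genes (5.23%) flanked a remote region. The interval for the list held this background share. At 10 to 100 kb the list flanked 1.44% (1.29 to 1.60) of regions, an interval that overlapped that of remote regions, and 1.02% of bases. The 5 genes were Klf4 and Pax9 with 9 members each, Sox9 with 6, Eya1 with 2 and Bcl11a with 1. Most of the 27 members thus lay beside Klf4 and Pax9.

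The stretch beside Klf4, a zinc finger factor of differentiating epithelia, held its 9 members in 2 places. One set of 6 lay 186 to 218 kb from the start of Klf4, with widths from 71 to 387 bases, and included the group of 5 named above. The other set of 3 lay 960 to 1001 kb away, at 623, 254 and 925 bases wide, nearer to the right flanking gene, from which they were 207 to 247 kb away. The region of 925 bases, whose centre is printed above, was thus the second widest of all remote regions.

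Pax9 encodes a factor needed for the thymus and other derivatives of the pharyngeal pouches. The members beside it all lay in introns of its neighbour Slc25a21, a mitochondrial carrier gene, 109 to 291 kb from the start of Pax9. They were 69 to 294 bases wide. The nearest one, chr12:56804523-56804816, held the AP-1 match printed above, 0 of 9 held an AP-1 match in their central 200 bases, and chr12:56895001-56895215 held an NF-kB match.

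Sox9, a factor of cartilage and several epithelia known for distant enhancers, was flanked by 6 members 206 to 281 kb from its start. They fell in 2 sets of 3. The first set, at 206 to 215 kb, was intergenic, with widths of 365, 488 and 214 bases. The second, at 275 to 281 kb, lay in introns of the non-coding gene 2610035D17Rik, with widths of 278, 206 and 652 bases. An AP-1 match was found in 1 region of the first set and 2 of the second. The region of 488 bases held an NF-kB match. Eya1, a transcription cofactor gene needed for the thymus primordium, had 2 members, at 197 and 217 kb. The nearer one, chr1:14506535-14506948, was 414 bases wide with a GC content of 69.1%, well above the median of 48.1%. Bcl11a, a zinc finger factor gene of lymphoid progenitors, had 1 member of 82 bases at 225 kb.

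Some motifs were far more frequent at the centre of remote regions than in the sequence beside them. For each of 16 motifs, the central 200 bases of a region were searched on both strands and set beside windows of the same length centred 1000 bases to either side, leaving out windows that touched another region (3050 windows for the 1551 members). Of the members, 952 (61.4%) were narrower than 200 bases, and for these the window ran past the edges of the region, so a match in the window need not lie in the region. Shares are of windows unless the region itself is named. A match is a description of letters and does not show that a factor was bound. An AP-1 match was found in 25% (22.9 to 27.2) of the central windows of remote regions and 6.23% (5.43 to 7.14) of the windows beside them. An NF-kB match was found in 6.0% (4.92 to 7.29) and 0.492% (0.298 to 0.810). A CTCF match was found in 2.51% (1.84 to 3.42) and 0.0984% (0.0335 to 0.289), that is in 39 central windows and 3 windows beside them. At least one of these 3 motifs was found in 497 central windows (32.0%), and AP-1 and NF-kB together in 20. The match lay outside the region for 49 of the 387 windows with AP-1 (12.7%), 6 of the 93 with NF-kB and 3 of the 39 with CTCF. Within the bounds of the regions themselves, at any position, 404 (26.0%) held AP-1, 99 (6.38%) NF-kB, 40 (2.58%) CTCF, 521 (33.6%) at least one of these 3 and 20 both AP-1 and NF-kB.

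In addition, an AP-2 match (GCCNNNGGC), read by a family of epithelial and ectodermal factors, was found in 6.13% (5.04 to 7.43) against 2.43% (1.94 to 3.04). An IRF match (GAAACNGAA), for interferon regulatory factors, was found in 3.29% (2.51 to 4.30) against 1.80% (1.39 to 2.34). These 5 were the motifs whose interval lay above that of the windows beside the regions, and 0 of the 16 lay below. The fixed letters of AP-2 are all G or C, and median GC content was 48.1% in the regions and 41.5% in the windows beside them. How far this difference in base composition enters the motif shares was not tested. IRF did not stand above in the central 100 bases, where its share was 1.35%, or in regions of at least 200 bases, and CTCF did not in the latter. The intervals overlapped for the other 11. Among them, GRHL (AACNGGTT, read by grainyhead-like epithelial factors) was at 2.64% against 1.48%, TEAD (GGAATGT) at 4.26% against 3.08%, KLF (GGGNGTGG) at 5.93% against 4.56% and ETS (CNGGAAGT, the family of Ehf, Elf3 and Elf5) at 3.29% against 2.69%. The GC box (GGGGCGGG) was at 1.03% against 0.361%, RUNX (TGTGGTT) at 5.61% against 4.79% and FOX (TGTTTAC) at 3.93% against 3.61%. The POU octamer (ATGCAAAT) was at 1.68% against 1.74%, C/EBP (TTGCNNAA) at 9.86% against 10.3% and HNF4 (CAAAGTCCA) at 0.387% against 0.492%. The p63 letters, CATG repeated after 6 unspecified bases, were at 0.709% against 0.787%. Letters of KLF and of the GC box are alike, but no string matches both.

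**Figure D4:**
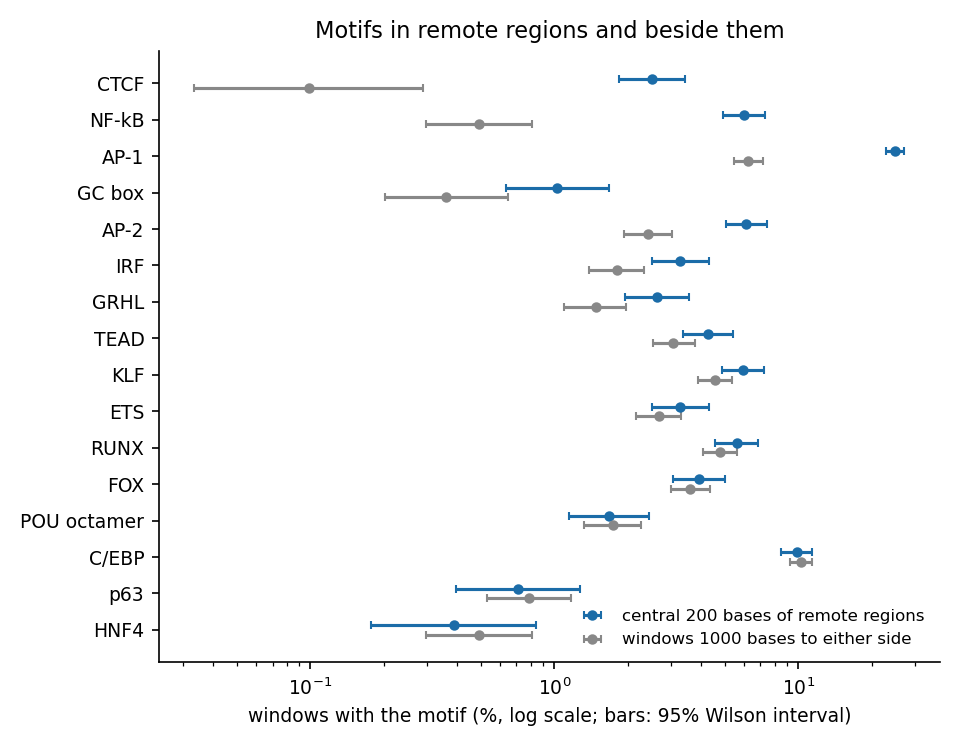
Percent of windows with each of 16 motifs (log scale, 95% Wilson intervals) in windows of 200 bases centred on the 1551 remote regions (blue) and in 3050 windows 1000 bases to either side (grey), ordered by the ratio of both. CTCF, NF-kB and AP-1 stand at the top, with 2.51%, 6.0% and 25% of the central windows, and the intervals of the lowest rows overlap.

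The matches lay close to the centre of the regions. Per bin of 50 bases, AP-1 matches numbered 9.61 per 100 remote regions within 50 bases of the centre and 1.73 beyond 500 bases, a ratio of 5.54. The ratio was 13.1 for NF-kB and 28.3 for CTCF, the last from 34 matches within 50 bases. It was 2.00 for IRF, 1.83 for GRHL and 1.11 for ETS.

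**Figure D5:**
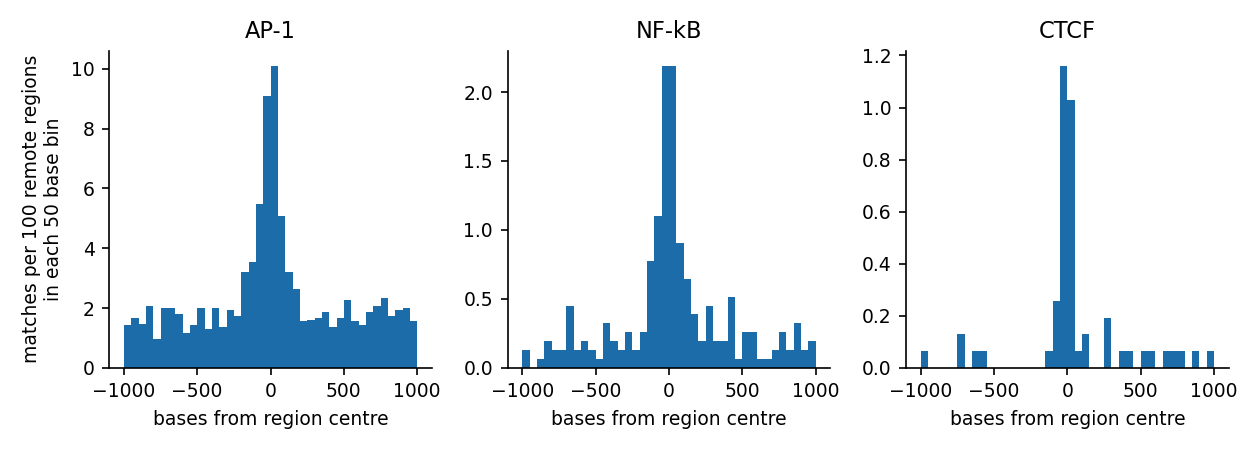
Matches per 100 remote regions in bins of 50 bases, from 1000 bases before to 1000 bases after the region centre, for AP-1, NF-kB and CTCF, each with its own vertical scale from 0. All 3 peak at the centre, at 9.61, 2.19 and 1.10 per bin within 50 bases, and are low and flat or sparse beyond 500 bases.

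Set beside other distal regions, remote regions had lower shares of CTCF and KLF matches and higher shares of NF-kB and IRF matches. AP-1 was at 25% in remote regions, 24.9% (24.3 to 25.5) at 10 to 100 kb and 23.5% (22.8 to 24.2) at 1 to 10 kb, and over all autosomal regions at 18.6%. CTCF was less frequent in remote regions than at 10 to 100 kb, where it was at 4.18% (3.92 to 4.45), and over all regions it was at 3.30%. NF-kB was at 6.0% (4.92 to 7.29) against 4.46% (4.19 to 4.74) at 10 to 100 kb, 4.05% at 1 to 10 kb and 3.42% over all regions. IRF was at 3.29% (2.51 to 4.30) against 1.88% (1.71 to 2.07), 1.86% and 1.69% in the same order. For CTCF, NF-kB and IRF the intervals lay apart from those of the class at 10 to 100 kb, with the window of 200 bases. The alternatives under which IRF did not stand above its surroundings were not run for this comparison. The KLF share was also lower, 5.93% (4.86 to 7.22) against 8.62% (8.26 to 9.0), as was the GC content of remote regions. The windows beside remote regions and beside those at 10 to 100 kb differed in the same direction for IRF (1.80% and 1.37%), KLF (4.56% and 5.76%) and CTCF (0.0984% and 0.129%). For NF-kB they differed in the other direction (0.492% and 0.681%). How far the surrounding sequence enters the differences between classes was not tested. For AP-2 the interval of 5.04 to 7.43% overlapped that at 10 to 100 kb (6.85 to 7.53%), and 11.9% of all autosomal regions held it. The GC box was at 7.62% over all regions. ETS was at 3.29% (2.51 to 4.30) against 4.49% (4.23 to 4.78), with overlapping intervals.

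The content of the central windows varied with the width of the members. Members with a CTCF match in the window were narrow, with a median of 107 bases against 163 bases without the motif. The CTCF share was 4.37% (2.71 to 6.98) in members under 100 bases, 3.58% (2.36 to 5.42) from 100 to under 200 bases and 0.334% (0.0916 to 1.21) in those of 200 bases or more, where 2 of 599 windows held it. AP-1 was at 17.8% (14.2 to 22.0), 30.4% (26.8 to 34.2) and 24% (20.8 to 27.6) in the same classes, so that the middle class was highest. NF-kB was at 3.83% (2.29 to 6.32), 5.8% (4.18 to 8.0) and 7.51% (5.66 to 9.90), with neighbouring intervals overlapping. Intronic and intergenic members had overlapping intervals for AP-1 (25.3% and 24.6%), NF-kB (5.51% and 6.52%) and CTCF (2.25% and 2.79%). AP-1 was found in 21.5% (14.4 to 30.9) of members with NF-kB and in 25.2% (23.0 to 27.5) of the others, with overlapping intervals.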

How the data were processed

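Per the study's methods, the authors aligned ATAC-seq reads of 8 samples to mm10 with Bowtie2, filtered out mitochondrial, multimapping and low-quality reads (SAMtools) and duplicates (Picard), and merged the broad peaks that MACS2 gave with bedtools. Whether peaks were called per sample is not stated. Reads in repeats are under-represented after this filter, and widths depend on peak calling and merging. The authors deposited 1 table, made with featureCounts 2.0.3 per the file headers, and of the deposited values only the start, end and length of each region in bases were used, which belong to no sample. Its 8 other columns, of per-sample read counts, match no sample label and were not used in any step. The planned edgeR comparison of the 4 groups was therefore not run, and neither were its alternatives.

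Each region was placed by its centre against the basic GENCODE M21 annotation as promoter (1000 bases before to 100 after a start), otherwise exon, intron or intergenic. Sequence and soft-masking came from GRCm38, in which 0 chromosomes had a region past the end. Coordinates are given as in the table. Shares have 95% Wilson intervals, and no test was made, since regions are not replicates. The functions were tested on simulated data. Members, gene lists, motifs and comparisons were chosen with earlier results of these data known. Regions were named by fixed rules: the 10 widest, the 5 farthest, the 5 leading intervals, host genes and groups (ties kept; the interval and host gene second by number of members are not reported here), members beside genes of the thymic list, and 3 on each side of the limit. Other leading intervals and the leading flanking genes were chosen after their values were seen. The tools were pysam 0.24.0, samtools 1.23.1, scipy 1.17.1, pandas 2.3.3, numpy 2.4.6 and matplotlib 3.10.9 under Python 3.11.15.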

Additional observations from a re-analysis of the deposited data

How the results depend on the processing

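No paired analysis was possible because neither a sample label nor a replicate number stands on the columns of counts, so the planned comparison between groups and its alternatives were not run. The number of remote regions was 1551. It became 7544 with starts of protein-coding genes only, 5398 with a limit of 50000 bases and 289 with a limit of 200000 bases, and was 1130 with the comprehensive annotation, 1547 by the nearest edge and 1573 with exonic centres kept. With protein-coding starts only, the intronic share was 43.2% and the share with another member within 10 kb 38.7%. With the limit of 200000 bases, the intronic share was 45.7%, the median width 150 bases and the share beside a developmental transcription factor gene 14.5%. With regions of at least 200 bases, the ratio of remote density to that at 10 to 100 kb was 0.348 (0.368 with all), the median width 300 bases by construction, the share of repeats 3.67%, the share with another member within 10 kb 20.5% and the share beside a developmental transcription factor gene 13.2%. A spacing of 20 kb gave 47.9%, and any soft-masked base 44.4%. Counting stretches in place of regions, an alternative chosen after seeing the data, put 8.25% of 606 occupied stretches beside a developmental transcription factor gene. Of all 1226 stretches with remote sequence, occupied or not, 88 lay beside such a gene, so by this count the occupied stretches were near the background. The share was 11.3% with and without symbols such as Ide and Ido1 that matched the list by spelling but are no transcription factors. AP-1, NF-kB and AP-2 stood above the neighbouring windows under all 4 motif alternatives. CTCF did not with regions of at least 200 bases, of which 0.334% held it, and IRF did not with these regions or in the central 100 bases. TEAD stood above in the central 100 bases, GRHL with regions of at least 200 bases and the GC box over the whole region. For the whole-region search the windows beside the regions stayed at 200 bases. The depth of the samples, not analysed here, limits how many remote regions a peak caller can find.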

Other observations

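The annotation used for starts matters for a set defined by the lack of them. Of the 1551 remote regions, 701 lay within 100000 bases of a transcript start in RefSeq, and 34 (2.19%, 1.57 to 3.05) within 1 kb of one, compared with 4.13% (3.87 to 4.4) of regions at 10 to 100 kb from a GENCODE start. The widest remote region, between Cd47 and Bbx, was among these 34, whose median width was 212.5 bases.

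A GC content of at least 60% with a ratio of observed to expected CpG of at least 0.6, as in CpG islands, was found in 12 remote regions (0.774%, 0.443 to 1.35) and in 1.96% (1.78 to 2.15) of regions at 10 to 100 kb. The widest, chr4:84545287-84545750, was 464 bases wide with a GC content of 71.1% and lay in an intron of Bnc2, the gene of a zinc finger protein, 64.5 kb from the nearest RefSeq start. Of the 12, 2 lay between BC052040 and Meis2, with widths of 416 and 176 bases, and the region beside Eya1 was another. A region in an intron of Rims1, 299 bases wide with a GC content of 76.3%, was 272 kb from the nearest RefSeq start.

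None of the remote regions overlapped an enhancer annotated in RefSeq (0 of 1551, Wilson interval up to 0.247%). At 10 to 100 kb, 110 regions or 0.500% (0.415 to 0.602) did. Of 1006 such enhancers on the autosomes, 33 were centred over 100 kb from every start. Of these 33, 1 overlapped a region of the set that was not a member. The nearest remote region to one of the 33 was 4.29 kb from its centre.

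Among neighbouring autosomal regions, 19 pairs abutted with no base between them, and in 3 of these pairs both were remote.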
